A study of Mus musculus with 6 samples.

Results

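The Frizzled receptor family was examined in hair follicle stem cells (HFSCs) of mice at postnatal day (PD) 35. The members were the 10 genes Fzd1 to Fzd10, chosen by gene symbol and not by their signal. Each had 1 array row that named it alone, so all 10 of the 30738 genes tested were measured and none was lost to a filter. Dorsal epidermis was parted from the dermis with trypsin, and HFSCs were sorted on CD34 and α6-integrin. All mice were females of the strain B6;129S4-Dab2tm1Cpr/J. WT mice were K14CreER-negative Dab2 fl/fl and Dab2-cKO mice were K14CreER+/- Dab2 fl/fl, so both groups carried the floxed alleles and only Dab2-cKO carried the Cre. Both received tamoxifen at 75 mg/kg for 5 days. K14, the promoter of this Cre, is active in basal keratinocytes of the epidermis and follicle, so the deletion was not limited to HFSCs. There were 3 arrays per group, which the labels call biological replicates. At this age the study describes WT follicles as growing (anagen) and Dab2-cKO follicles as resting (telogen), so genotype and hair cycle phase cannot be told apart in these arrays.

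Frizzled proteins are multi-pass membrane receptors whose cysteine-rich outer domain binds the lipid of Wnt ligands. With the co-receptors Lrp5 and Lrp6 they recruit Dishevelled and stabilise β-catenin, the route by which Wnt starts a new hair growth phase. Some members also act in planar cell polarity, which orients cells and hairs within the plane of the skin. The comparison asks which receptors of the family differ in RNA between the groups.

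The series as a whole sets limits on that question. Dab2, the targeted gene, was 6.52 ± 0.08 log2 units in WT and 8.86 ± 0.09 on arrays labelled Dab2-cKO (SD, n = 3). By limma this was a rise of at least 3.02-fold (adjusted p = 1.35e-05). It was higher and not lower, which goes against the label, so directions below are stated for "arrays labelled Dab2-cKO". Where the probes of this row lie against the deleted part is not known here, and probes outside it check nothing. Signals are log2 values. A background level of 7.26 was the 95th percentile over 1532 olfactory and vomeronasal receptor genes (below, the sensory receptor genes), most of which serve sensory neurons. It was taken from their means over all 6 arrays, so both groups share 1 level. The array median of these genes was 5.45 in WT and 4.65 on arrays labelled Dab2-cKO, so the level is matched to neither group. A gene below this level in both groups gives little information on RNA. Over all genes, 18.2% were called higher and 32.4% lower (limma, Benjamini-Hochberg adjusted p below 0.05). On arrays labelled Dab2-cKO, 17 of 17 hair matrix, inner root sheath and hair shaft markers were lower, and Lef1 differed by -4.21 log2 units. Of 15 endothelial markers 15 were higher there, of 12 fibroblast markers 11 and of 14 leukocyte markers 13. What these values mean for the Dab2 rise or for the labels was not tested. Of 10 basal epidermal and follicle keratinocyte markers, the mean over the 6 arrays exceeded the background level for 9. Of 11 bulge stem cell markers 7 were higher and 3 lower, or 8 and 1 when centred on the sensory receptor genes. The sort marker Cd34 was 5.47-fold higher on those arrays than in WT, while Sox9 (-1.04 log2 units), Lhx2 (-0.93) and Lgr5 (-1.63) were the members called lower as deposited. Lgr5, Nfatc1, Tcf7l1 and Gas1 lay below the background level in both groups. By the mean over the 6 arrays, 14 of 17 hair matrix, inner root sheath and hair shaft markers exceeded it. So did 9 of 9 suprabasal epidermal, 8 of 12 fibroblast, 5 of 8 melanocyte and 5 of 11 pericyte and smooth muscle markers. Further, 5 of 14 leukocyte, 4 of 15 endothelial and 4 of 11 bulge stem cell markers exceeded it. All 4 of these bulge markers were called higher, so Sox9, Lhx2 and Lgr5 were not among them. The mean over the 6 arrays takes both groups together and describes neither alone. The hair shaft keratin Krt31 was 16.22 in WT and 5.22 on arrays labelled Dab2-cKO, and the endothelial marker Cldn5 was 6.56 and 11.30. In such bulk samples fewer cells of a type and less RNA per cell cannot be told apart.

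The family split into 1 receptor that was higher, Fzd4, and 6 that were lower on arrays labelled Dab2-cKO, namely Fzd1, Fzd2, Fzd3, Fzd5, Fzd6 and Fzd10. Fzd7, Fzd8 and Fzd9 did not pass the test. The median difference of the 10 members was -0.37 log2 units, beside -0.14 over all genes. The 6 lower calls stand beside a background of 32.4% of genes and the 1 higher call beside 18.2%. Among the sensory receptor genes 0.131% were called higher and 73.8% lower. The arrays of the groups did not overlap for 1 member that was higher and 7 that were lower, beside 22.2% and 41.3% of all genes. Only Fzd4 as higher and Fzd5 as lower kept their calls under each of the array scalings tried, and the 5 other lower calls depended on the scaling as given below. Fzd5 and Fzd3 lay below the background level on all arrays. Of the sensory receptor genes, 21.9% had a lower difference than Fzd5, so its call gives little information on RNA.

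**Figure D1:**
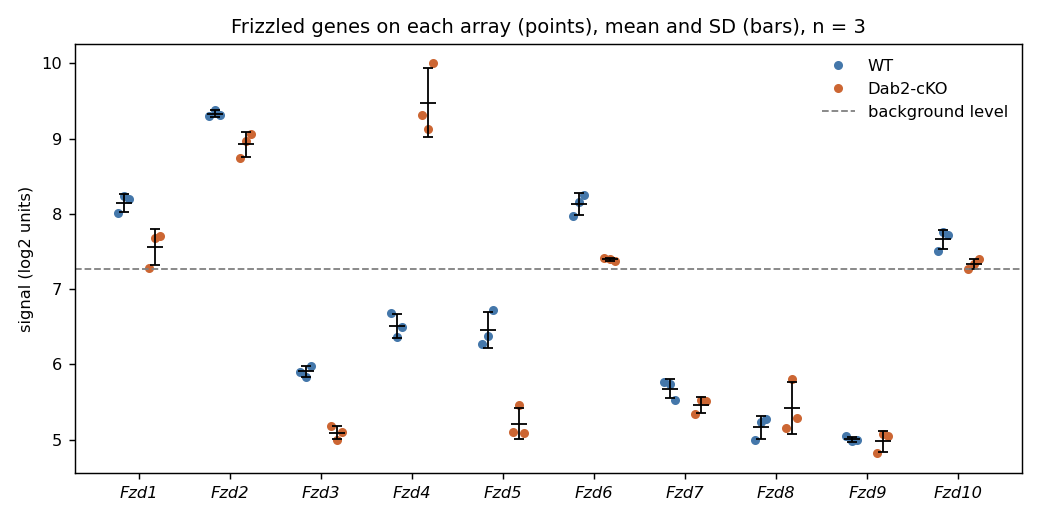
Signal of each Frizzled gene in log2 units (y axis) on the 3 WT and the 3 arrays labelled Dab2-cKO, with points for arrays and bars for the mean and SD. The dashed line is the background level of 7.26. Fzd4 lay between 6.36 and 6.68 in WT and between 9.12 and 9.998 in the other group, while Fzd3, Fzd5, Fzd7, Fzd8 and Fzd9 stayed below the line on all arrays.

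Fzd4, which in the mouse serves as the receptor of the non-Wnt ligand norrin in retinal vessels besides binding Wnt proteins, carried the only rise. Its signal was 6.68, 6.36 and 6.50 in WT and 9.31, 9.12 and 9.998 on arrays labelled Dab2-cKO. All 3 WT arrays lay below the background level and the other 3 well above it, so the groups did not overlap. Because the WT mean was below the background level, the rise is given as at least 4.64-fold. The means were 6.52 ± 0.16 and 9.48 ± 0.46 (SD, n = 3), a difference of 2.96 ± 0.23 log2 units (SE, limma adjusted p = 0.000205). This measured difference rests on a WT signal below the background level, as do the values under other settings. With Dab2-cKO replicate 3, the highest array, left out, the difference was 2.70. Over 17 alternatives it ranged from 2.70 to 3.76 and passed the threshold in all 17, with adjusted p between 1.99e-06 and 0.00577.

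Markers of other cell types moved with Fzd4. Marker counts here and below stand beside 18.2% of all genes higher and 32.4% lower as deposited. When centred on the sensory receptor genes, 73.4% of all genes were higher and 7.81% lower. Of 15 endothelial markers all 15 were higher, among them Cldn5, of endothelial junctions, at least 16.5-fold, and Tek, the angiopoietin receptor, at least 3.13-fold. The summed endothelial signal was 9.67 to 9.83 log2 units in WT and 12.33 to 12.67 on arrays labelled Dab2-cKO, while Tie1, Esam, Robo4, Ramp2, Sox17 and Sox18 lay below the background level in both groups. Of 12 fibroblast markers 11 were higher (sum 15.91 to 16.33 in WT and 18.74 to 19.09 in the other group), with Thy1, Fbln1 and Twist2 below the background level in both. Of 11 pericyte and smooth muscle markers 8 were higher (sum 11.13 to 11.51 against 12.79 to 13.00), with Cspg4, Kcnj8 and Notch3 below it, and of 14 leukocyte markers 13 were higher (sum 11.14 to 11.26 against 15.53 to 15.64), with Aif1, Cd3e, Cd52, Laptm5, Itgam and Cd207 below it. Of 9 suprabasal epidermal markers, all above the background level in at least 1 group, 6 were higher and 2 lower (sum 18.75 to 19.23 against 20.39 to 20.50), with Krt1, a keratin of differentiating cells, 157-fold higher. Basal keratinocyte markers were 5 higher and 2 lower of 10 (sum 17.56 to 17.90 against 18.17 to 18.48), and the sum of the bulge markers was 14.52 to 15.12 against 15.67 to 16.12. The part of these cells in the Fzd4 signal was not tested.

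Of 4 genes on a list of norrin and Fzd4 partners, Ndp, Tspan12 and Cthrc1 were dim and the co-receptor Lrp5 was not. Lrp5 exceeded the background level in WT (7.39) and on arrays labelled Dab2-cKO (7.60). Its difference of 0.22 ± 0.08 did not pass the threshold as deposited (SE, limma adjusted p = 0.0533). When centred on the sensory receptor genes, all 4 were called higher. Ndp, which encodes norrin, was 3.85 in WT and 3.62 on arrays labelled Dab2-cKO, a difference of -0.23 ± 0.09 (SE, limma adjusted p = 0.0726) which became 0.56 under centring on the sensory receptor genes and 0.05 on the control rows. Tspan12, a tetraspanin that boosts norrin signalling through Fzd4, was 5.84 and 6.23 (difference 0.39 ± 0.11, adjusted p = 0.0255). Ndp and Tspan12 stayed below the background level in each group. The Tspan12 call was lost when Dab2-cKO replicate 1 (adjusted p = 0.0805), Dab2-cKO replicate 3 (0.0727), WT replicate 2 (0.0709) or WT replicate 3 (0.0712) was left out.

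Promoters of the called members are shown because Fzd4 went the opposite way from the others. Promoters of 6 of the 10 members were read from RefSeq (GRCm38.p6), of which Fzd1, Fzd4, Fzd5 and Fzd10 were called. Those of Fzd2, Fzd3, Fzd6 and Fzd8 were not analysed here. Each sequence runs from 250 bases before the gene start to 50 after it on the gene's strand. Capitals mark matches to the GC box GGGCGG, the TCF/LEF core CTTTGA, the TATA box TATAAA and the CCAAT box CCAAT on either strand, and neighbouring GC boxes may overlap.
Fzd4 (chr7:89404116-89404415, plus strand): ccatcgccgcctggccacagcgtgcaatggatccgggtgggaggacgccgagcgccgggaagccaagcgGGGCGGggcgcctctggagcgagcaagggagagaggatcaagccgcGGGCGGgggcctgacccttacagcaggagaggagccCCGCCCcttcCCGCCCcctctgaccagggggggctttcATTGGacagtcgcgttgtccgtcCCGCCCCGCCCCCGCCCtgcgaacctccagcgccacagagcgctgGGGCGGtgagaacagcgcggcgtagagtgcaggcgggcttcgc
Fzd5 (chr1:64737701-64738000, minus strand): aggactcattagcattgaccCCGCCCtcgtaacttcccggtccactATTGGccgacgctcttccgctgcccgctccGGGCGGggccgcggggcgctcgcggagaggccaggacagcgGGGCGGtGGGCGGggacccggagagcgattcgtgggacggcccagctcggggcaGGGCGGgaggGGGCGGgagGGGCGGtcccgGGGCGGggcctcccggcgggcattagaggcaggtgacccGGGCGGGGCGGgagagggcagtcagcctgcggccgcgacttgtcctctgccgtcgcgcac
Fzd10 (chr5:128600856-128601155, plus strand): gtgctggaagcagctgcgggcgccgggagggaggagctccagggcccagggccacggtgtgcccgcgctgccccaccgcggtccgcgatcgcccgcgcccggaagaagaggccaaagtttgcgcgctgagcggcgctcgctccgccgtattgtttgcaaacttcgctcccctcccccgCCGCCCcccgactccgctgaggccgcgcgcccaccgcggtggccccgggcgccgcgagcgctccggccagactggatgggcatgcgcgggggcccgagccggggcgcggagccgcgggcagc
Fzd1 (chr5:4758167-4758466, minus strand): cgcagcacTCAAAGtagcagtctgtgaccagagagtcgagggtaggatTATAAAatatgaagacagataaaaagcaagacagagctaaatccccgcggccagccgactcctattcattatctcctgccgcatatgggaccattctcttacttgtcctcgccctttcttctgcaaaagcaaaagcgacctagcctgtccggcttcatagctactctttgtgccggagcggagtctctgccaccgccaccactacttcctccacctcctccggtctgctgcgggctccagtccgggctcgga

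The window of Fzd4 held 8 GC boxes and that of Fzd5, which went the other way, held 10. Fzd10 held 1 and Fzd1 none. A GC box was found in 35.7% of 32851 RefSeq promoters of the same length. Fzd1 alone of the 4 held a TCF/LEF core and a TATA box, 1 of each, and these were found in 16% and 13.6% of all promoters. A CCAAT box stood once in Fzd4 and once in Fzd5, against 37.4% of all promoters. G and C made up 72.7% of the Fzd4 window, 75.7% of Fzd5, 77.7% of Fzd10 and 54.0% of Fzd1. The median over all promoters was 52.7%. Fzd4 and Fzd5, which differed in opposite directions, thus both held several GC boxes and 1 CCAAT box.

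Fzd1 and Fzd2, which act redundantly in mouse palate closure and can signal through β-catenin, lay above the background level in both groups. Fzd1 was 8.01, 8.24 and 8.19 in WT and 7.28, 7.68 and 7.71 on arrays labelled Dab2-cKO. The groups did not overlap, and Dab2-cKO replicate 1 was the lowest array. The means of 8.15 ± 0.12 and 7.56 ± 0.24 (SD, n = 3) differed by -0.59 ± 0.14 (SE, limma adjusted p = 0.0133), or 1.50-fold. Fzd2 was 9.30, 9.38 and 9.31 in WT and 8.74, 8.96 and 9.06 in the other group. Here too all WT arrays were above all others. The means of 9.33 ± 0.05 and 8.92 ± 0.17 differed by -0.41 ± 0.10 (adjusted p = 0.0162), or 1.33-fold. Neither fall held across scalings, and centred on the control rows the differences were -0.31 for Fzd1 (adjusted p = 0.137) and -0.13 for Fzd2 (adjusted p = 0.403). With quantile normalization the Fzd2 call was lost too (-0.34, adjusted p = 0.0716). Centred on the median of all genes, Fzd1 differed by -0.39 (adjusted p = 0.0624) and Fzd2 by -0.21 (adjusted p = 0.164), and centred on the sensory receptor genes they differed by 0.20 (adjusted p = 0.301) and 0.39 (adjusted p = 0.04).

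Fzd3 and Fzd6 are the members known for planar cell polarity, and loss of Fzd6 in the mouse disturbs the orientation of hairs. Fzd6 was 7.97, 8.16 and 8.26 in WT and 7.42, 7.40 and 7.38 on arrays labelled Dab2-cKO. The latter 3 were close together and just above the background level, and no array overlapped with WT. The means of 8.13 ± 0.15 and 7.40 ± 0.02 (SD, n = 3) differed by -0.73 ± 0.09 (SE, limma adjusted p = 0.00121), or 1.66-fold. Fzd3 was 5.90, 5.84 and 5.98 in WT and 5.18, 5.00 and 5.10 in the other group. All of its arrays were below the background level. Its difference of -0.81 ± 0.08 (adjusted p = 0.000522) was close to the median of -0.80 over the 1532 sensory receptor genes, of which 73.8% were called lower. Centred on those genes, Fzd3 differed by -0.02 (adjusted p = 0.906) and Fzd6 by 0.07 (adjusted p = 0.68), while under the 3 other scalings both stayed lower and past the threshold.

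Fzd5, which in the mouse gut is needed for Paneth cell maturation, had the lowest measured difference in the family, between signals below the background level. Its signal was 6.27, 6.38 and 6.72 in WT and 5.10, 5.46 and 5.09 on arrays labelled Dab2-cKO. The groups did not overlap, but every array was below the background level, so no fold is given. The means of 6.46 ± 0.23 and 5.21 ± 0.21 (SD, n = 3) differed by -1.24 ± 0.16 (SE, limma adjusted p = 0.00118). Over the 16 alternatives that included it, Fzd5 stayed lower and past the threshold, with differences from -1.36 to -0.45 and adjusted p up to 0.0261. Among the sensory receptor genes, 21.9% had a lower difference than Fzd5.

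Fzd10 lay near the background level. It was 7.51, 7.75 and 7.72 in WT and 7.27, 7.34 and 7.40 on arrays labelled Dab2-cKO. The groups were apart but narrowly so. The means of 7.66 ± 0.13 and 7.34 ± 0.07 (SD, n = 3) differed by -0.33 ± 0.09 (SE, limma adjusted p = 0.0262), or 1.25-fold. This was the weakest of the lower calls. It was lost without Dab2-cKO replicate 1 (adjusted p = 0.0817), Dab2-cKO replicate 2 (0.0614), WT replicate 2 (0.0816) or WT replicate 3 (0.0804), and it turned to 0.47 (adjusted p = 0.0167) under centring on the sensory receptor genes. It was also lost when centred on the median of all genes (-0.12, adjusted p = 0.377) or on the control rows (-0.05, adjusted p = 0.752). The Fzd2 call was also lost without WT replicate 2 (adjusted p = 0.0532).

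Fzd7, Fzd8 and Fzd9 were dim in both groups and passed no threshold as deposited. Fzd7, a receptor of mouse intestinal stem cells, was 5.77, 5.73 and 5.53 in WT and 5.34, 5.53 and 5.52 on arrays labelled Dab2-cKO. Its groups did not overlap, although the lowest WT array and the highest of the others both rounded to 5.53, and they differed by -0.22 log2 units (95% interval -0.45 to 0.02, limma adjusted p = 0.107). Fzd8 was 4.99, 5.23 and 5.27 against 5.16, 5.80 and 5.29. Its groups overlapped and differed by 0.26 (95% interval -0.18 to 0.69, adjusted p = 0.277), with Dab2-cKO replicate 2 above the rest. Fzd9 was 5.05, 4.98 and 4.99 against 4.82, 5.07 and 5.05. Its groups overlapped as well, with a difference of -0.03 (95% interval -0.25 to 0.19, adjusted p = 0.812).

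**Figure D2:**
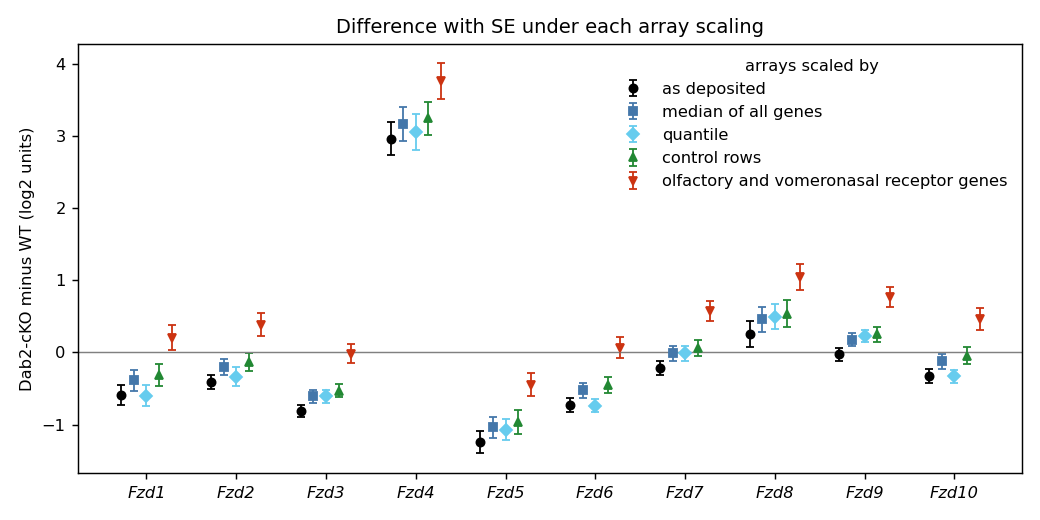
Difference of each Frizzled gene (Dab2-cKO minus WT, log2 units, y axis) with its SE, as deposited and after 4 array scalings. Fzd4 stayed between 2.96 and 3.76 and Fzd5 between -1.24 and -0.45, whereas Fzd1, Fzd2, Fzd6, Fzd7, Fzd9 and Fzd10 were below 0 as deposited and above 0 when centred on the sensory receptor genes.

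The array median of the sensory receptor genes was 5.45 in WT and 4.65 on arrays labelled Dab2-cKO, that of all genes 5.64 and 5.44, and the control rows went both ways. The most numerous control class, 6546 of 6732 rows, went from 5.72 to 5.44, while the 23 background rows went from 3.11 to 3.23, the 155 spike-in rows from 3.78 to 3.996 and the 8 others from 7.15 to 7.99. Centring on the control rows used the median of all of them together. The median difference over all genes was -0.14 as deposited, 0.07 after centring on the median of each array, 0.04 with quantile normalization, 0.14 when centred on the control rows and 0.66 when centred on the sensory receptor genes. Over these settings, in the same order, the family gave 6, 3, 5, 3 and 1 lower members, beside 32.4%, 19.8%, 21.0%, 17.1% and 7.81% of all genes. It gave 1, 1, 1, 2 and 6 higher members, beside 18.2%, 28.0%, 26.4%, 33.9% and 73.4% of all genes. Under the last setting the higher members were Fzd2, Fzd4, Fzd7, Fzd8, Fzd9 and Fzd10, and the lower one was Fzd5. The family median went from -0.37 to 0.43 under that setting.

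Differences between members on the same array do not depend on a constant added to an array. They were read for the 4 members above the background level in both groups, Fzd1, Fzd2, Fzd6 and Fzd10, and for Fzd4 against these. The signal of Fzd4 changed by 3.29 to 3.69 log2 units more than that of each of the 4, and the groups did not overlap in any of these 4 pairs. Because Fzd4 was below the background level in WT, these are differences of signal and do not measure a ratio of RNA. Among the 6 pairs of the other 4 members, the groups overlapped in 4. They did not overlap for Fzd1 minus Fzd10, which changed by -0.26, and for Fzd6 minus Fzd10, which changed by -0.40. Relative to the mean signal of all 10 members, of which 5 were below the background level in both groups, Fzd4 was -0.28 ± 0.20 in WT and 2.79 ± 0.43 on arrays labelled Dab2-cKO (SD, n = 3). The change of 3.07 had a two-sided exact permutation p of 0.1, the smallest that 3 against 3 arrays allow.

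**Figure D3:**
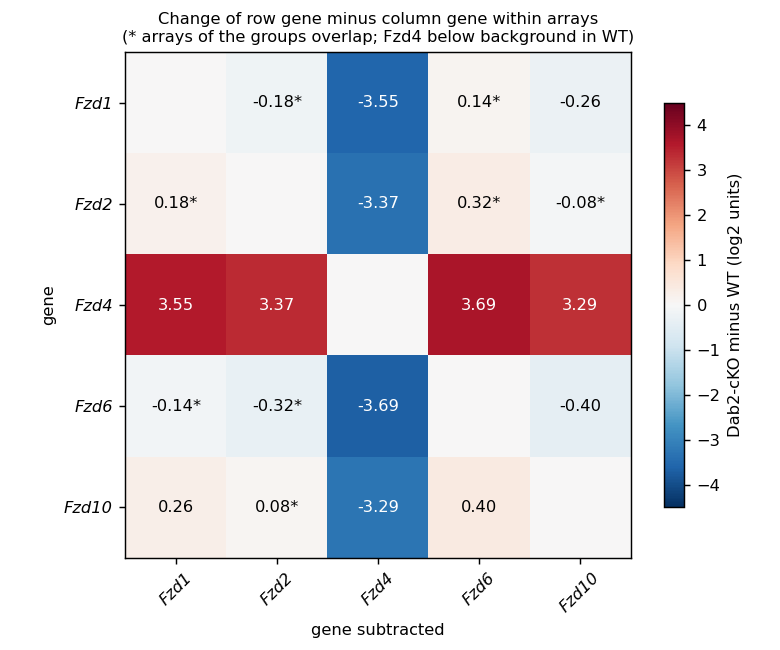
Change in the signal difference between 2 Frizzled genes on the same array (row gene minus column gene, Dab2-cKO minus WT, log2 units) for the members above the background level in at least 1 group, with red for a change in favour of the row gene. The Fzd4 row, below the background level in WT, holds values from 3.29 to 3.69, and an asterisk marks the 4 pairs whose groups overlapped.

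The changes of Fzd1 and Fzd2 were not told apart by this test. Fzd1 minus Fzd2 was -1.18 in WT and -1.37 on arrays labelled Dab2-cKO, a change of -0.18 with overlapping groups (exact permutation p = 0.2). Members were also set against the mean of the 9 others than Fzd4, a choice made after seeing the data. On that scale Fzd6 changed by -0.27 and Fzd1 by -0.13, while Fzd10 changed by 0.13 and Fzd2 by 0.047. The exact permutation p was 0.1 for Fzd6, 0.3 for Fzd1, 0.2 for Fzd10 and 0.6 for Fzd2.

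The counts below for genes that act with Frizzled receptors stand beside 18.2% of all genes higher and 32.4% lower as deposited, and 73.4% higher and 7.81% lower under the centring on sensory receptor genes. None of the counts was tested against these shares. Among 10 co-receptors and alternative Wnt receptors, 3 were higher and 3 lower, or 9 higher and none lower under that centring. Ror1, Ror2, Musk and Adgra2 lay below the background level in both groups. Of the 6 with a mean over the arrays above it, 1 was higher and 3 lower as deposited. Reck, a membrane protein that aids Wnt7 signalling, was at least 2.76-fold higher (7.10 in WT and 8.73 on arrays labelled Dab2-cKO, limma adjusted p = 0.000166). Ptk7, a co-receptor of planar cell polarity, was at least 1.53-fold lower as deposited (7.87 and 6.86, adjusted p = 0.002). Under that centring its fall was smaller and not past the threshold (-0.21, adjusted p = 0.251). Ryk, an atypical kinase-like Wnt receptor, differed by -0.39 ± 0.08 (SE, adjusted p = 0.00725) but by 0.40 under the sensory receptor centring. Markers of fibroblasts (11 of 12 higher), endothelium (15 of 15), leukocytes (13 of 14) and pericytes and smooth muscle (8 of 11) all moved with Reck. The part of these cells was not tested.

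Genes that set the amount of Frizzled at the surface were mostly dim. Of 11 measured regulators and R-spondin pathway genes, 3 were higher and 5 lower as deposited, against 7 and 1 under the sensory receptor centring, and 1 had a mean above the background level. Znrf3, a ubiquitin ligase that removes Frizzled from the membrane, went from 8.60 ± 0.22 to 7.47 ± 0.22 (SD, n = 3), a 2.19-fold fall (limma adjusted p = 0.00167). Lgr4, an R-spondin receptor that restrains Znrf3, was at least 1.44-fold lower as deposited (adjusted p = 0.00197). Under the sensory receptor centring Znrf3 differed by -0.33 (adjusted p = 0.0942) and Lgr4 by -0.26 (adjusted p = 0.0989).

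Ligands, carriers and antagonists added few signals above background. All 19 Wnt ligands lay below the background level in both groups, with 4 higher and 4 lower, or 17 higher and 1 lower under the sensory receptor centring. Of these, Wnt5a, a ligand of β-catenin-independent signalling, was 6.99 in WT and 5.53 on arrays labelled Dab2-cKO (limma adjusted p = 5.46e-05), and Wnt3 was 6.06 and 6.997 (adjusted p = 0.00336). Porcn, Notum and Wls, listed for Wnt acylation, removal of the acyl group and secretion, were all 3 lower. Under the sensory receptor centring 1 was higher and 1 lower. Porcn and Notum lay below the background level in both groups. Wls, the transporter needed for Wnt release, was 2.39-fold lower (11.37 ± 0.17 and 10.11 ± 0.17, SD, n = 3, adjusted p = 0.00052). Among 6 Frizzled-related antagonists and Wif1, 2 were higher and 1 lower, or 5 and 1 under the sensory receptor centring. The Wif1 gene, whose product binds Wnt ligands outside the cell, was at least 1.46-fold lower (adjusted p = 0.000158).

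Downstream of the receptors, 10 Dishevelled and β-catenin transduction genes gave 3 higher and 1 lower, or 9 and 1 under the sensory receptor centring. Dvl2, Ctnnb1 and Tcf7 had no row of their own and were not analysed here. Lef1, a DNA-binding partner of β-catenin, was the gene that was lower, from 9.40 ± 0.43 to 5.19 ± 0.07 (SD, n = 3), at least 4.40-fold (limma adjusted p = 4.12e-05). Gsk3a, a kinase of the β-catenin destruction complex, was 1.56-fold higher (adjusted p = 0.0154), which ended without WT replicate 2 (adjusted p = 0.0505). Dvl3, a Dishevelled adaptor, was at least 1.14-fold higher at adjusted p = 0.0469. That call was lost when any single array was left out, with adjusted p from 0.0638 to 0.123.

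The planar cell polarity genes that work beside Fzd3 and Fzd6 gave 5 lower and 2 higher of 12. Under the sensory receptor centring they gave 3 lower and 8 higher. Vangl2, Celsr3, Prickle1, Prickle2, Prickle3, Ankrd6, Fuz, Intu and Invs lay below the background level in both groups. Of the 3 with a mean over the arrays above it, 2 were lower and 0 higher as deposited, namely Celsr1 and Celsr2. Celsr1 and Celsr2 are atypical cadherins that hold Frizzled at cell borders. Celsr1 went from 7.98 ± 0.21 to 6.78 ± 0.05 (SD, n = 3), at least 1.65-fold lower (limma adjusted p = 0.000458). Celsr2 went from 8.13 ± 0.22 to 6.80 ± 0.07, at least 1.82-fold lower (adjusted p = 0.000354). Both stayed lower and past the threshold under every alternative run, while the folds are bounds for the deposited signals only. Hair matrix, inner root sheath and hair shaft markers moved the same way as these genes and Fzd6, with 17 of 17 lower and a summed signal of 20.35 to 20.53 log2 units in WT and 10.08 to 10.10 on arrays labelled Dab2-cKO, where Hoxc13, Foxn1 and Shh lay below the background level in both groups. Of 8 melanocyte markers 6 were lower and 1, Sox10, was higher but below the background level in both groups (sum 14.32 to 14.53 against 10.52 to 10.65). Under the sensory receptor centring 5 melanocyte markers were lower and 2 higher. The part of these cells in the Frizzled signals was not tested.

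**Figure D4:**
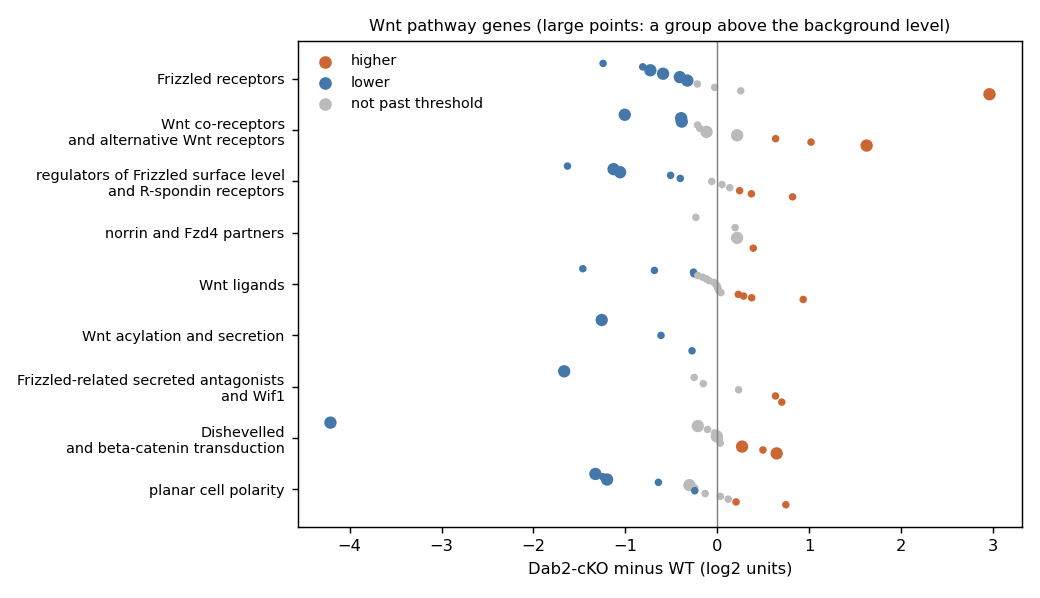
Difference of each measured gene of 9 Wnt pathway lists (Dab2-cKO minus WT as deposited, log2 units, x axis), coloured by the limma call, with large points for genes above the background level in at least 1 group. Fzd4 at 2.96 and Lef1 at -4.21 lie farthest from 0, and the balance of small differences moves towards higher under the other scalings.

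Genes whose pattern over the 6 arrays was most like that of each called member above the background level were listed from 17359 other protein-coding genes, as a description. For Fzd4 these were Ccng1, Gbp3 and Serpinb7, at root mean square distances of 0.15 to 0.17 log2 units. Ccng1, a cyclin G gene induced by p53, went from 10.73 to 13.74, and Gbp3, an interferon-induced GTPase, from 5.75 to 8.41. For Fzd6 they were Serpina7, Rhpn2 and Slc22a29, all 3 below the background level in both groups. For Fzd1 they were Trib1, Sytl5 and Mrpl39, for Fzd2 Siah1a, Nsd3 and Arhgap19, and for Fzd10 Dock5, Brd1 and Zc3hc1. Of these 9, all but Mrpl39, Siah1a and Brd1 were under the background level in each group. The distance takes in the difference between the groups itself.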

How the data were processed

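RNA of sorted HFSCs (1 ng) was amplified and hybridised to Affymetrix whole-transcriptome mouse arrays, 3 per group. The authors deposited log2 signals, for which the submitters' notes name RMA and Affymetrix Expression Console, and the methods name Transcriptome Analysis Console for the testing. RMA makes the probe distributions of arrays equal, so a change in total RNA is not visible. No source used here gives the build behind the annotation of the array. Of 65956 transcript rows, 31292 named 1 gene, 1522 several and 33142 were unnamed here. The row with the highest mean was taken per gene. Symbols were updated through RefSeq GRCm38.p6, which held 30736 of 30738 genes. The 6732 control rows were left out of the tests.

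Groups were compared by limma (version 3.58.1, R 4.3.3) with lmFit and eBayes on all 6 arrays and no covariate, two-sided, adjusted over 30738 genes at 0.05. The fit was tested on simulated data. The background level of 7.26 was the 95th percentile of receptor gene means over all 6 arrays. A fold with 1 group below it is computed against it and given as "at least". Such a fold is a lower bound for the deposited signals only. Another scaling can give a smaller difference, as for Ptk7 and Lgr4. The number of arrays limits the precision. Named genes were all Frizzled genes, Dab2, and per list up to 3 called members above the background level with the largest differences, or up to 2 where none was called above it. Only those needed are printed for the marker lists. The members, lists and rules were chosen with earlier results of these data known. Alternatives were the replicate block, each array left out, 4 scalings, dim gene and gene class filters, trend with robust eBayes, other row choices and the methods' unpaired test.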

Additional observations from a re-analysis of the deposited data

How the results depend on the processing

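Fzd4 as higher and Fzd5 as lower kept direction and call under every alternative that included them. Centring on the sensory (olfactory and vomeronasal) receptor genes gave 6 Frizzled genes higher and 1 lower, 22552 genes higher and 2400 lower, a family median of 0.43, and differences of 0.20 for Fzd1, 0.39 for Fzd2, 0.066 for Fzd6, 0.58 for Fzd7, 0.77 for Fzd9, 0.47 for Fzd10, 0.40 for Ryk and 0.56 for Ndp. Centring on the control rows gave 2 higher and 3 lower Frizzled genes, 10424 genes higher and 5269 lower, a median of -0.088, and 0.061 for Fzd7, 0.25 for Fzd9 and 0.045 for Ndp. Centring on the median of all genes gave 1 higher and 3 lower, 8596 and 6098 genes, a median of -0.16 and 0.17 for Fzd9. Quantile normalization gave 6458 genes lower and 0.23 for Fzd9. As deposited, 5609 of 30738 genes were higher and 9946 lower. With all transcript rows 6852 of 65956 were higher and 21034 lower, and with protein-coding genes 5188 of 19253 were higher and 5595 lower. With genes above the background level 3001 of 8827 were higher and 3052 lower. These settings change which genes are tested as well as their number, and the excess of lower calls was small with dim genes left out. The cause of the shifts between scalings was not tested.

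Leaving out 1 array gave 1 Frizzled gene higher each time, 4 to 6 lower, 4686 to 5264 genes higher, 7701 to 8892 lower, medians from -0.42 to -0.30, and Fzd9 differences from -0.073 to 0.053. The replicate block gave 1 Frizzled gene higher and 6 lower, with 4704 genes higher and 8009 lower. Same-numbered arrays had correlations of -0.22 to -0.02, so the numbers were not read as pairs. Relative to the family mean, Fzd9 changed by -0.21 with the mean taken over genes above the background level, and with Fzd4 left out of the mean Fzd2 changed by 0.047, Fzd7 by 0.24 and Fzd10 by 0.13. The methods' t-test gave 1 higher and 6 lower, unadjusted and after Benjamini-Hochberg. Signals of Fzd3, Fzd5, Fzd7, Fzd8 and Fzd9 below the background level limit what their differences show.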
